A study of Mus musculus with 6 samples.

Results

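The Usher syndrome genes followed here are Ush1c, Ush1g, Myo7a, Cdh23, Pcdh15, Clrn1 and Cib2, taken by gene symbol from the deposited expression values of 6 mouse retina libraries. All 7 were found among 24346 symbols, and the symbols alone chose them, with no measured value used. Of the libraries, 3 were Cyfip2 CKO retina, from a conditional knockout of Cyfip2, and 3 were Cyfip2 WT retina, labelled wild-type. The age and sex of the mice, the floxed allele, the Cre driver and whether each library came from a separate animal are details that the sources used here leave out. The p-values therefore measure the spread between these libraries, which may be technical. The comparison asks which transcripts differ in retina with a conditional knockout of Cyfip2, a subunit of the WAVE complex that drives branched actin assembly.

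Usher syndrome joins inherited hearing loss with retinitis pigmentosa. Its proteins build the links that hold the actin-filled stereocilia of inner ear hair cells together. The cadherins Cdh23 and Pcdh15 form the tip link. Harmonin (Ush1c) and SANS (Ush1g) are scaffolds of this link, and the motor myosin VIIa (Myo7a) moves and tensions it. In photoreceptors the same proteins sit at the calyceal processes, at the connecting cilium and at the synapse, and myosin VIIa also moves melanosomes in the pigment epithelium. Mouse photoreceptors have few or no calyceal processes, and mice with mutations in type 1 genes lose hearing and balance but show little retinal degeneration.

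Values are FPKM, fragments per kilobase of transcript corrected for the size of the library, so levels of different genes may be compared per length. The targeted gene Cyfip2 was at 8.33, 10.2 and 11.2 FPKM in the CKO libraries and at 35.5, 63.1 and 62.3 FPKM in the WT libraries. Summed markers of rods, the most numerous retinal cell, lay between 15640 and 17910 FPKM. The keratins Krt5 and Krt14 of surface epithelium were at 0 in all 6 libraries, while the keratin Krt12 was at 0.237 to 0.567 FPKM. The list of lens and cornea genes summed to 241.8 FPKM in WT 2 and to 25.6 to 88.3 FPKM in the other 5 libraries. Depth relative to WT 1, judged from the steps between low values, was 1.04, 1.29 and 1.2 in the CKO libraries and 1.08 and 1.05 in WT 2 and WT 3. The absolute depth is unknown, so no counting interval could be set.

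The 7 genes fell into a fixed order of level that was the same in CKO and WT retina. By their mean over 6 libraries Pcdh15 was highest at 38.0 FPKM, then Cib2 at 17.8, Myo7a at 9.97, Clrn1 at 5.66, Cdh23 at 0.986, Ush1g at 0.547 and Ush1c at 0.184 FPKM. No neighbours in this order overlapped across the 6 libraries. The closest pair was Cdh23, lowest at 0.680 FPKM, and Ush1g, highest at 0.665 FPKM. Pcdh15 stood at or above 90.8% of all symbols in the files and Ush1c at or above 36.1%.

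**Figure D1:**
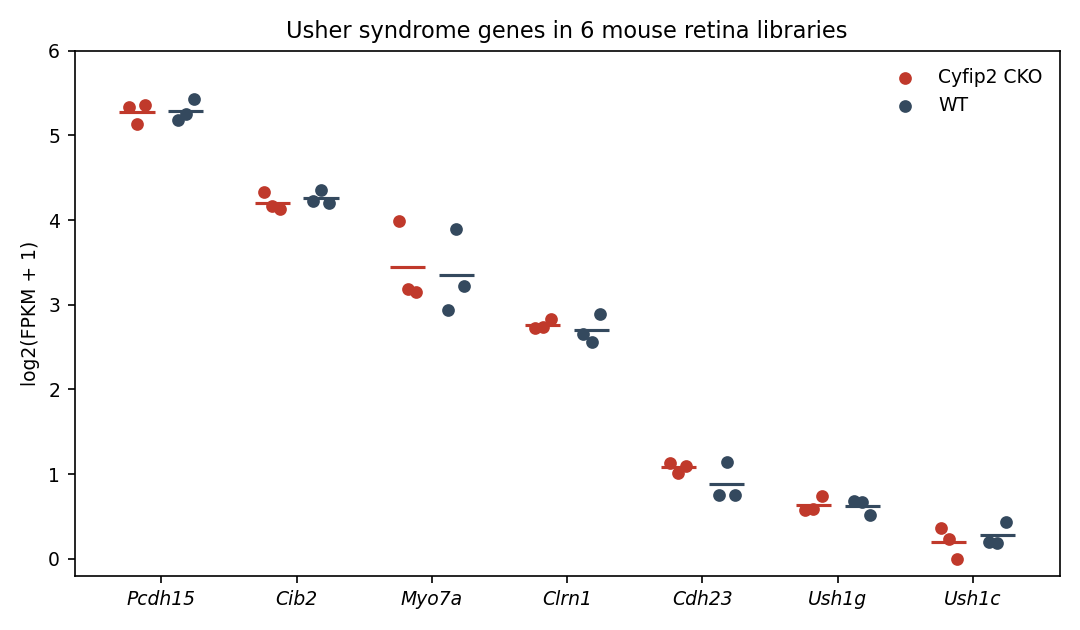
Level of each Usher syndrome gene, as log2(FPKM + 1), in 3 Cyfip2 CKO libraries (red, left of each pair) and 3 WT libraries (dark, right); points are libraries and bars are group means. The points of CKO and WT overlap for all 7 genes, and Myo7a has 1 high library in each group.

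None of the 7 genes differed between CKO and WT retina past the threshold, and for all 7 the values of the groups overlapped. The fit was made with limma on log2(FPKM + 1) over 13215 genes that averaged at least 1 FPKM, at a Benjamini-Hochberg adjusted p under 0.05. Of the 7 genes 4 were tested (Pcdh15, Cib2, Myo7a and Clrn1). Of them 0 were called, 0 had an unadjusted p under 0.05, and 0 had groups that did not overlap. Over all genes tested, 0.0227% were called, 7.88% had an unadjusted p under 0.05 and 13.9% had groups that did not overlap. Of the 4, log2 fold changes were above 0 for 2 and below 0 for 2, with a median of 0.03, beside a median of -0.0016 over all genes tested. Cdh23, Ush1g and Ush1c lay under that minimum. They entered a fit with a minimum mean of 0.1 FPKM, which held all 7 genes among 16277 and called 0 of them, where 0.0184% of genes were called. In this bulk tissue, fewer cells of a type and less RNA per cell cannot be told apart.

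**Figure D2:**
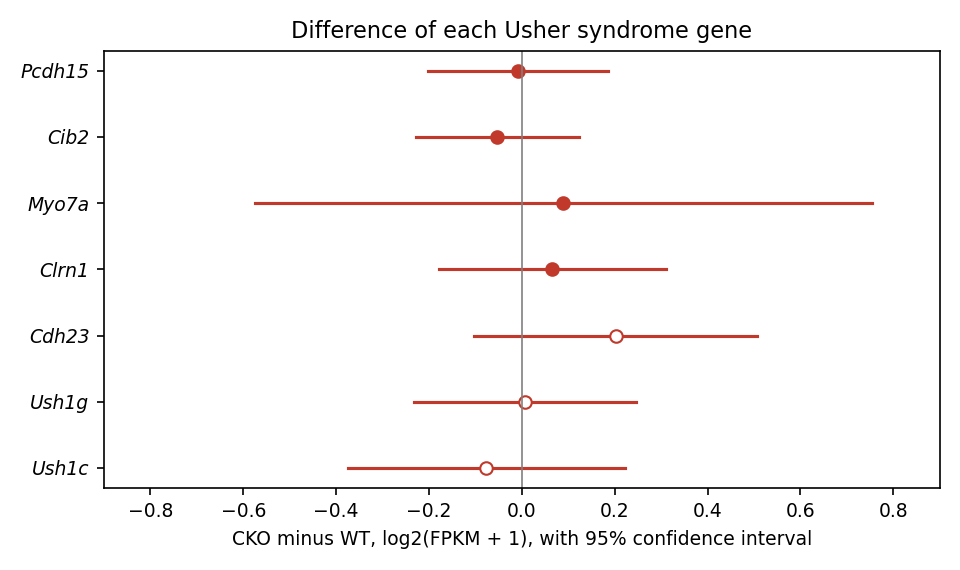
Difference between Cyfip2 CKO and WT retina for each Usher syndrome gene on the log2(FPKM + 1) scale, with 95% confidence intervals from limma with a minimum mean of 0.1 FPKM; filled points also passed the minimum of 1 FPKM and open points did not. All 7 intervals include 0, and that of Myo7a is the widest, from -0.58 to 0.75.

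Pcdh15 encodes the lower strand of the tip link and was the most abundant of the genes. It was at 39.4, 34.0 and 40.1 FPKM in the CKO libraries and at 35.2, 37.1 and 42.0 FPKM in the WT libraries. The groups covered nearly the same range, with the highest value in WT 3 and the lowest in CKO 2. Means were 37.9 ± 3.32 FPKM for CKO and 38.1 ± 3.50 FPKM for WT (n = 3 each, SD). The log2 fold change was -0.0087 (SE 0.08, limma adjusted p = 0.9876), with a 95% interval from -0.20 to 0.19, that is from 0.868-fold to 1.14-fold on this scale. Its sign turned without CKO 2 (0.06) and without WT 3 (0.06). In GENCODE M21 on GRCm38, Pcdh15 lies on the plus strand of chromosome 10 from 73099342 to 74649737, a gene of 1550396 bases with 41 annotated transcripts, and 1 value per gene does not separate them.

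Cdh23 encodes the upper strand of the tip link and was far less abundant than its partner. It was at 1.18, 1.02 and 1.14 FPKM in the CKO libraries and at 0.683, 1.20 and 0.680 FPKM in the WT libraries. All 3 CKO libraries lay above WT 1 and WT 3, but WT 2 was higher than each of them, so the groups overlapped. Means were 1.12 ± 0.0826 FPKM for CKO and 0.855 ± 0.30 FPKM for WT (n = 3 each, SD), a ratio of 1.31. The log2 fold change in the fit with the minimum of 0.1 FPKM was 0.20 (SE 0.13, 95% interval -0.10 to 0.51, limma adjusted p = 0.7916). Cdh23 lies on the minus strand of chromosome 10 from 60302748 to 60696490. The gene Vsir lies inside it on the other strand, listed in the files by its older name 4632428N05Rik at 0.978 to 1.33 FPKM in CKO and 1.04 to 1.71 FPKM in WT. The sources used here do not state the strand setting of the counting, so reads of these genes may not be fully separated.

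Set against Pcdh15 within each library, Cdh23 had 3.0%, 3.01% and 2.85% of the Pcdh15 level in CKO 1, 2 and 3, and 1.94%, 3.24% and 1.62% in WT 1, 2 and 3. The CKO libraries lay close together and inside the wider WT range. The mean was 2.95 ± 0.0922% in CKO and 2.26 ± 0.855% in WT (SD, n = 3 each). On the scale of log2((Cdh23 + 1)/(Pcdh15 + 1)) the CKO mean was -4.20 and the WT mean -4.41. This difference of 0.21 gave p = 0.3 in a two-sided exact permutation test, which cannot go below 0.1 with 3 against 3 libraries.

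Myo7a, the motor of the complex, varied more between libraries of 1 group than between the groups. It was at 14.9, 8.07 and 7.91 FPKM in the CKO libraries and at 6.69, 13.9 and 8.33 FPKM in the WT libraries. CKO 1 and WT 2 were high and the other 4 libraries lay between 6.69 and 8.33 FPKM, so each group held 1 high and 2 low libraries. The highest value was 2.23 times the lowest, against 1.18 times for Cib2 and 1.23 times for Pcdh15. The within-group SD of Myo7a on the log2(FPKM + 1) scale was 0.48, at or above that of 98.7% of all genes tested and 99.5% of the 1000 genes nearest to it in level. Means were 10.3 ± 4.01 FPKM for CKO and 9.63 ± 3.77 FPKM for WT (n = 3 each, SD). The log2 fold change was 0.09 (SE 0.29, limma adjusted p = 0.9612). Its 95% interval ran from -0.57 to 0.75, or 0.671-fold to 1.69-fold, and its sign turned without CKO 1 (-0.19) and without WT 1 (-0.12).

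Myosin VIIa is also a protein of the pigment epithelium, which can adhere to a dissected retina. The 14 pigment epithelium markers summed to 16.6, 20.6 and 17.3 FPKM in the CKO libraries and to 20.4, 11.7 and 13.5 FPKM in the WT libraries. CKO 1 and WT 2, the libraries with high Myo7a, had the lowest sum of their group. Without Ttr, which encodes transthyretin and was the most abundant marker, the other 13 summed to 10.37, 11.5 and 10.45 FPKM in CKO and to 11.65, 8.707 and 8.616 FPKM in WT, and WT 2 was then not the lowest of its group. The defining enzyme Rpe65 was at 0.645, 1.24 and 1.71 FPKM in CKO and at 1.60, 0.772 and 1.59 FPKM in WT, again lowest in CKO 1 and WT 2. Other markers, named after their values were seen, ran the other way in CKO 1 or in WT 2, but not in both. Mitf, Oca2 and Pmel were highest of the 6 libraries in CKO 1, at 1.70, 0.226 and 1.17 FPKM. In WT 2, Mitf and Oca2 were lowest of the WT libraries, at 1.26 and 0.0865 FPKM, and Pmel was intermediate, at 0.918 FPKM. Tyr was highest in WT 2, at 0.569 FPKM, but lowest of the CKO libraries in CKO 1, at 0.297 FPKM. In CKO 1, 7 of the 14 were lowest and 5 highest of their group, and in WT 2, 8 were lowest and 2 highest. In all, 5 of the 14 were lowest of their group in both libraries and none was highest in both. The part of the pigment epithelium in the level of Myo7a was not tested. All 14 markers were detected in at least 1 library, and 7 stayed under 1 FPKM in all 6. The lens and cornea sum was 54.8, 25.6 and 63.5 FPKM in CKO and 44.2, 241.8 and 88.3 FPKM in WT. It was highest in WT 2 but not high in CKO 1, and its part in the level of Myo7a was not tested. The rod sum was lowest in CKO 1, at 15640 FPKM, and stood at 17880 FPKM in WT 2.

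**Figure D3:**
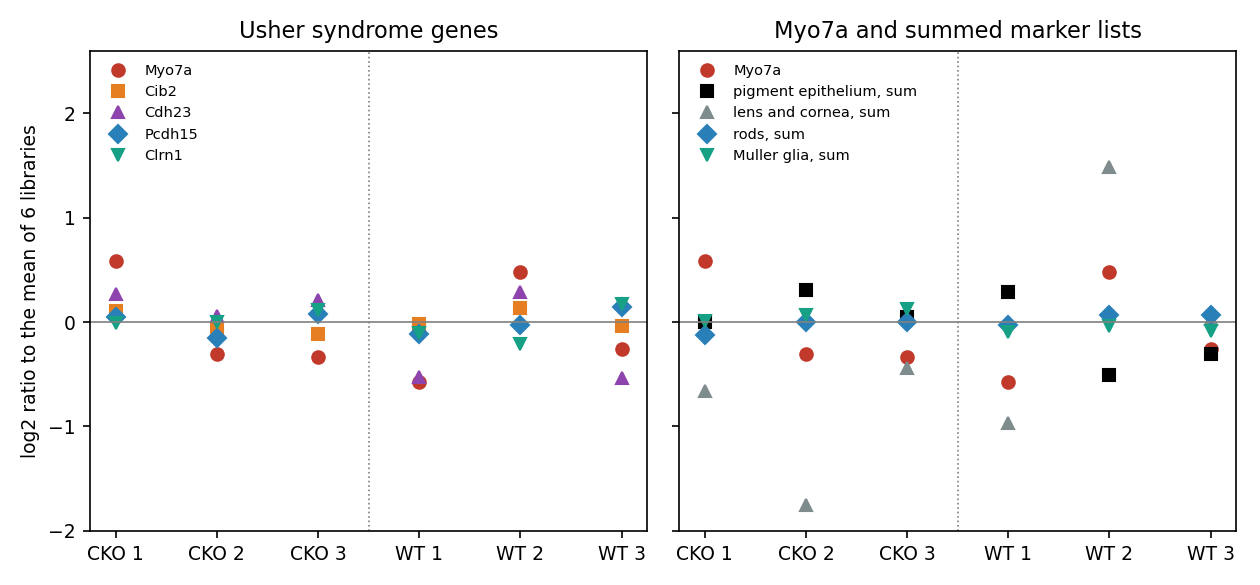
Log2 ratio of each library to the mean of the 6 libraries, for 5 Usher syndrome genes (left) and for Myo7a beside the summed FPKM of 4 marker lists (right); CKO libraries stand left of the dotted line and WT libraries right of it. Myo7a is high in CKO 1 (14.9 FPKM) and WT 2 (13.9 FPKM), where the pigment epithelium sum is 16.6 and 11.7 FPKM.

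Myo7a lies on the minus strand of chromosome 7 from 98051060 to 98119524 (GRCm38), with 13 transcripts in GENCODE M21. RefSeq gives it 2 transcription starts 10245 bases apart, and FPKM per gene does not show which of them the high libraries used. The windows of 250 bases before and 50 bases after each start are shown because the values cannot tell these starts apart, and the Pcdh15 window because that gene was the most abundant. They are credited to RefSeq on GRCm38.p6 and lie at chr7:98119444-98119743 (minus strand), chr7:98109199-98109498 (minus strand) and chr10:73821617-73821916 (plus strand). Capitals mark matches on either strand to GGGCGG (the GC box), to CATGTG or CACGTG (the E-box forms that MITF, a regulator of pigment cells, binds), or to TATAAA (the TATA box).
Myo7a upstream start: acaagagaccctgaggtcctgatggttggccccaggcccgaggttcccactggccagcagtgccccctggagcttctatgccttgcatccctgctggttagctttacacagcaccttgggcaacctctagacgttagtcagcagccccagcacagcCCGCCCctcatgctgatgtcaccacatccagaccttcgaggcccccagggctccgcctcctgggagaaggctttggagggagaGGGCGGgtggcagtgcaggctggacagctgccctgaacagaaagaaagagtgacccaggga
Myo7a downstream start: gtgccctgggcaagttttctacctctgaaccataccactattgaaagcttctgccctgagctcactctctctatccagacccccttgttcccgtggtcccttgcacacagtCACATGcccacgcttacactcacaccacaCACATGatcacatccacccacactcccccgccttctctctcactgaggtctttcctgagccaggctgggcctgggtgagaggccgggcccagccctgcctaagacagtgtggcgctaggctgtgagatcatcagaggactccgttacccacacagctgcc
Pcdh15 start: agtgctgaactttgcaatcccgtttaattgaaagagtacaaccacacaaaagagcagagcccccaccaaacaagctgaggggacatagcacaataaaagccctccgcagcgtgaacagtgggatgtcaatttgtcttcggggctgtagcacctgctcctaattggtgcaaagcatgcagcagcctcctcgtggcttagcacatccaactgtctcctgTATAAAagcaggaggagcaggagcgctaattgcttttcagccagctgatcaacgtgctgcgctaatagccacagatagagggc
The upstream Myo7a window held 2 GC boxes, and the downstream window held 2 E-boxes, at -139 and -110 from the start. The Pcdh15 window held 1 TATA box at -33. Its start, at 73821867, lies inside the GENCODE gene, which begins at 73099342 and has 41 transcripts. Whether the abundant Pcdh15 transcripts use this start was not tested. Among the windows not printed, that of Cdh23 held 1 E-box at -57, and those of Cib2 and Ush1c held 4 and 1 GC boxes. Among 32851 promoter windows of this length, 35.7% held a GC box, 20.4% such an E-box and 13.6% a TATA box. One more motif, TAATCC, the core that the photoreceptor factor CRX binds, was in 0 of the 7 windows found for the genes (no window was matched for Ush1g) and in 7.06% of all windows.

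Cib2, a calcium and integrin binding protein that joins the mechanotransduction channel of hair cells, showed the smallest ratio between its highest and lowest library. It was at 19.1, 16.9 and 16.5 FPKM in the CKO libraries and at 17.7, 19.5 and 17.4 FPKM in the WT libraries. CKO 1 and WT 2 were again the highest of their group, over a much smaller range than for Myo7a. Means were 17.5 ± 1.43 FPKM for CKO and 18.2 ± 1.17 FPKM for WT (n = 3 each, SD). The log2 fold change was -0.05 (SE 0.08, limma adjusted p = 0.9118), and its 95% interval from -0.23 to 0.12 spans 0.854-fold to 1.09-fold. Cib2 lies on the minus strand of chromosome 9 from 54544794 to 54560218 and shares 227 bases at its end with Sh2d7, a gene on the other strand at 0.378 to 0.712 FPKM.

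Clrn1 encodes clarin-1, a small membrane protein of hair bundles and synapses and the gene of Usher syndrome type 3. It was at 5.62, 5.66 and 6.11 FPKM in the CKO libraries and at 5.27, 4.90 and 6.39 FPKM in the WT libraries. The CKO values lay inside the WT range. Means were 5.80 ± 0.273 FPKM for CKO and 5.52 ± 0.776 FPKM for WT (n = 3 each, SD). The log2 fold change was 0.07 (SE 0.10, 95% interval -0.17 to 0.30, limma adjusted p = 0.9204), and it turned to -0.0034 without WT 2. Clrn1 lies on the minus strand of chromosome 3 from 58844028 to 58885340.

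The genes of the 2 scaffolds were near the lower end of detection. Ush1g, which encodes SANS, was at 0.487, 0.501 and 0.665 FPKM in the CKO libraries and at 0.602, 0.593 and 0.436 FPKM in the WT libraries. The highest value was in CKO 3 and the lowest in WT 3. Its log2 fold change in the fit with the minimum of 0.1 FPKM was 0.0067 (SE 0.10, 95% interval -0.23 to 0.25, limma adjusted p = 0.9918). The whole of Ush1g, on the minus strand of chromosome 11 from 115315192 to 115322041, lies within Otop2 on the other strand, which was at 0.25 to 0.329 FPKM in CKO and 0.118 to 0.194 FPKM in WT.

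Ush1c, which encodes the PDZ scaffold harmonin, was the least abundant. It was at 0.287, 0.174 and 0 FPKM in the CKO libraries and at 0.150, 0.137 and 0.354 FPKM in the WT libraries. CKO 3 is listed at 0, and the highest value was in WT 3. Scaled by relative depth, these values fell on whole multiples of 1 common step within 0.1 of a step: 4, 3 and 0 steps in CKO and 2, 2 and 5 steps in WT. The ratio of the means, CKO over WT, was 0.719. The log2 fold change in the fit with the minimum of 0.1 FPKM was -0.08 (SE 0.13, 95% interval -0.37 to 0.22, limma adjusted p = 0.9353), on the scale that understates changes of low genes. Ush1c lies on the minus strand of chromosome 7 from 46195350 to 46238503.

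The genes whose profile over the 6 libraries lay nearest to that of each tested Usher gene were found by the root-mean-square difference of centred log2(FPKM + 1), a description over 6 libraries. For Myo7a they were Mogat1, an acyltransferase of triglyceride synthesis (difference 0.19), and Hbb-b2, a beta globin (0.20). Mogat1 was at 2.92, 1.82 and 1.64 FPKM in CKO and at 0.832, 2.15 and 1.44 FPKM in WT, highest in CKO 1 among the CKO libraries and in WT 2 among the WT libraries. CKO 1 and WT 2 were also highest for Hbb-b2, at 5.06, 3.58 and 3.08 FPKM in CKO and at 2.32, 3.93 and 3.11 FPKM in WT. The distances were smaller for the steadier genes: 0.03 for Zfp277 and 0.04 for Zfp503 from Pcdh15, 0.02 for both Zkscan6 and Cyr61 from Clrn1, and 0.01 for Map3k14 and 0.02 for Timm17a from Cib2. Since many genes vary little, a small distance from a steady gene says little about the pair.

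In 6 lists of related genes, 0 of 33 tested genes were called, 3 had an unadjusted p under 0.05 and 4 had groups that did not overlap, Myo6, Triobp and Myrip among them. These counts stand beside 7.88% and 13.9% of all genes tested. All 4 genes of the list of the Usher type 2 complex were tested. Their median log2 fold change was 0.11, with a range from -0.005 to 0.20, and single values are not reported here. Of 5 genes of atypical or Usher-like disease, all tested, 4 were above 0 and 1 below 0, with a median of 0.05. The centrosomal gene Cep250 was at 36.4 ± 2.98 FPKM for CKO and 34.4 ± 3.44 FPKM for WT (n = 3 each, SD), the histidyl-tRNA synthetase gene Hars at 35.5 ± 3.56 FPKM in CKO against 32.9 ± 2.57 FPKM in WT, and the lipase gene Abhd12 at 55.8 ± 5.29 FPKM in CKO against 60.8 ± 2.37 FPKM in WT. The sulfatase gene Arsg (8.35 FPKM in CKO, 8.33 FPKM in WT) and the centrosomal gene Cep78 (7.75 FPKM in CKO, 7.47 FPKM in WT) were lower in level, and none of these 5 passed the test.

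Of 24 hair bundle partners, 8 were tested and 16 stayed under 1 FPKM in all 6 libraries. The actin bundlers Fscn2 and Espn were the most abundant, Fscn2 at 36.8 ± 1.32 FPKM in CKO against 37.2 ± 6.23 FPKM in WT, and Espn at 27.2 ± 1.33 FPKM for CKO and 27.5 ± 1.61 FPKM for WT (n = 3 each, SD). Eps8, a regulator of actin filament ends, was at 17.8 FPKM in CKO against 17.9 FPKM in WT. Myo6, the motor that moves towards the minus end of actin, was at 21.7, 22.5 and 22.3 FPKM in CKO and at 24.3, 23.9 and 23.9 FPKM in WT, without overlap. Its log2 fold change was -0.11 (limma unadjusted p = 0.04637, adjusted p = 0.6214). Triobp, an actin-bundling protein of the hair bundle rootlet and named here after its values were seen, was at 11.4, 12.5 and 12.2 FPKM in CKO and at 15.0, 15.0 and 14.1 FPKM in WT, again without overlap. Its log2 fold change was -0.27 (95% interval -0.42 to -0.12, unadjusted p = 0.002963, limma adjusted p = 0.3708). The hair cell channel gene Tmc2, the Cib2 relative Cib3, the motor gene Myo3a and Grxcr1, named after their values were seen, are listed at 0 in every library.

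Counterparts of the Usher genes, most of them known from the gut brush border, were near 0 with 1 exception. Of 6 such genes 1 passed the minimum of 1 FPKM, the Cib2 relative Cib1, at 9.33 ± 1.71 FPKM for CKO and 10.7 ± 0.975 FPKM for WT (n = 3 each, SD). Myo7b, the relative of Myo7a, averaged 0.0190 FPKM in CKO against 0.0273 FPKM in WT. Anks4b, the relative of Ush1g, averaged 0.0844 FPKM in CKO against 0.166 FPKM in WT. The cadherins Cdhr2 and Cdhr5 averaged 0.0512 and 0.175 FPKM in CKO and 0.0900 and 0.178 FPKM in WT, and Clrn3 is listed at 0 in every library.

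Of 8 genes of myosin-driven organelle transport, 6 were tested, with a median log2 fold change of 0.06. Myrip, the linker between myosin VIIa and the melanosome GTPase Rab27a, was at 13.6 ± 0.319 FPKM for CKO and 12.2 ± 1.18 FPKM for WT (n = 3 each, SD; log2 fold change 0.16, limma adjusted p = 0.6841). Its groups did not overlap. The motor gene Myo5a was at 28.0 FPKM in both groups, and the actin nucleator genes Spire1 and Spire2 were at 20.3 and 10.4 FPKM in CKO and at 20.8 and 10.4 FPKM in WT. Of 10 photoreceptor partners, 9 were matched by symbol and tested, with a median of 0.0013. The most abundant, Cdhr1, the photoreceptor cadherin, was at 376.7 ± 9.88 FPKM for CKO and 381.2 ± 15.3 FPKM for WT (n = 3 each, SD). Rp1, a microtubule protein of the outer segment, was at 311.8 FPKM in CKO against 311.5 FPKM in WT, Prom1, a protein of disc membranes, at 252.8 FPKM in CKO against 263.9 FPKM in WT, and Rpgrip1, a scaffold of the connecting cilium, at 195.8 FPKM in CKO against 179.5 FPKM in WT.

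**Figure D4:**
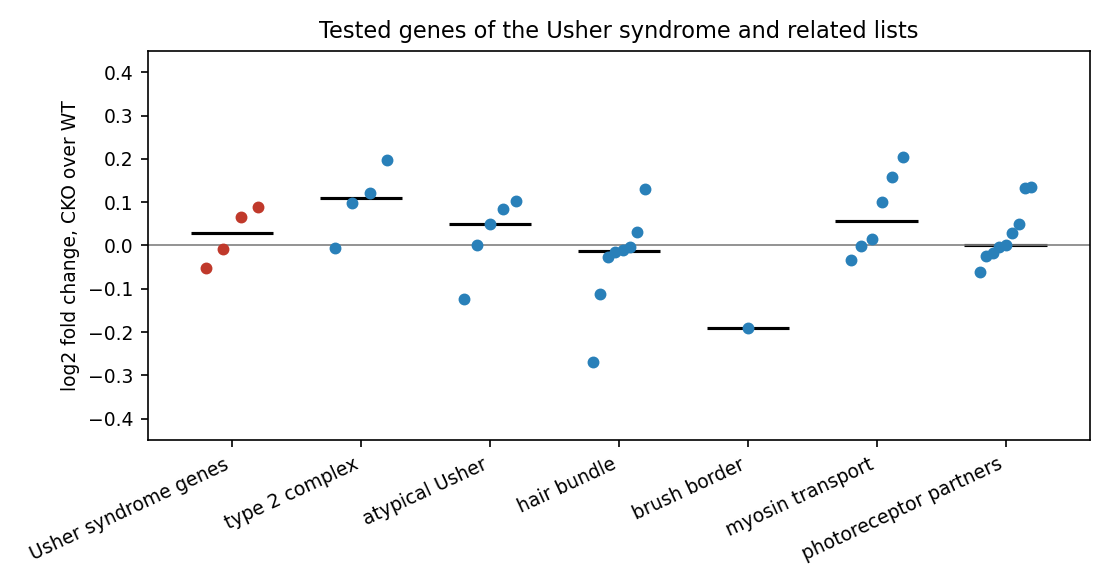
Log2 fold change (CKO over WT, log2(FPKM + 1) scale) of each tested gene in the Usher syndrome list (red) and 6 related lists (blue); bars are medians. Every plotted gene lies between -0.27 and 0.20, and none passed the adjusted threshold.

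Summed markers of 6 retinal cell types had ranges that did not overlap between the groups, given here without a test. Of single genes tested, 13.9% had groups that did not overlap. The sums share the same 6 libraries and are not independent of each other. For 4 of the 6 they also did not overlap without the gene whose group means differed most, a check chosen after seeing the data. The amacrine list summed to 411.2 to 422.2 FPKM in CKO and 354.3 to 379.7 FPKM in WT. Of its 10 genes 8 had a log2 fold change above 0 and 2 below. These 2 were Chat and Slc18a3, the latter at 3.59 to 5.73 FPKM in CKO and 5.88 to 7.25 FPKM in WT. The cone list summed to 677.6 to 741.2 FPKM in CKO and 748.1 to 839.2 FPKM in WT, with 9 of 10 genes below 0. The ganglion cell list summed to 702.5 to 727.4 FPKM in CKO and 769.7 to 835.1 FPKM in WT, with 9 of 10 genes below 0. The Müller glia list, of whose 11 genes Dkk3 was called higher, summed to 2395 to 2594 FPKM in CKO and 2217 to 2304 FPKM in WT. Without Dkk3 its sums overlapped, at 1979 to 2120 FPKM in CKO and 1988 to 2064 FPKM in WT. The cone sums overlapped without Opn1mw, at 602.6 to 657.8 FPKM in CKO and 652.9 to 728.2 FPKM in WT. The bipolar list summed to 952.7 to 1010 FPKM in CKO and 1035 to 1084 FPKM in WT, with 8 of 10 genes below 0. The horizontal cell list summed to 168.6 to 187 FPKM in CKO and 190.5 to 199.1 FPKM in WT, with 7 of 8 genes below 0. The rod, microglia, vascular, pigment epithelium and lens and cornea sums overlapped. The part of any of these lists in the levels of the Usher genes was not tested.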

How the data were processed

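Retinal RNA was extracted with TRIzol and sequenced after TruSeq stranded mRNA preparation, per the labels' protocols. Cufflinks 2.2.1, TopHat2 2.0.13, SAMtools 1.11, Bowtie2 2.3.5.1 and mm10 are listed, per the submitters' processing notes, with no role for each. The sources used here do not give the annotation, the strand setting or any scaling between libraries. The authors deposited 1 FPKM value per gene symbol and library, which keeps no read counts. In WT 3, 27 symbols turned into dates were restored from the same rows of the other libraries.

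Values were set to log2(FPKM + 1), and 13215 genes averaging at least 1 FPKM entered limma 3.58.1 under R 4.3.3 (eBayes with trend, two-sided, no covariate). This scale understates changes of low genes. The fit was also run on simulated data with normal noise at its own fitted variances. Such data meet the assumptions of the fit, so they cannot show how it performs where these fail. Positions come from GENCODE M21 (GRCm38) and promoters from RefSeq. The genes and lists were chosen with earlier results of these data known. Named are the 7 genes, Cyfip2, every gene of lists of up to 6, the 4 most abundant of longer lists, and the 2 nearest profiles, leaving out Gm and Rik names. A few genes that this rule selects are not reported here. Alternatives were pseudocounts of 0.1 and 0.01, no minimum or 0.1 or 5 FPKM, size factors, quantile normalization, a replicate block, other variance moderation, library weights and each library left out.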

Additional observations from a re-analysis of the deposited data

How the results depend on the processing

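The count of 0 Usher syndrome genes called held under all 17 alternatives. They tested 4 of the 7 genes, or all 7 with no minimum and with a minimum of 0.1 FPKM. In the 6 related lists 0 genes were called. Since 0.0227% of all genes were called in the fit as reported, 0 calls among so few genes do not show that they were unchanged. Over all genes, limma as reported called 2 higher and 1 lower. The 1 lower was the targeted gene Cyfip2 (log2 fold change -2.29, limma adjusted p = 0.02389). The higher count was 1 with the replicate block and 1 without the variance trend, and 1 to 3 when a library was left out. The lower count was 0 with no minimum, with robust eBayes and without the trend, and 0 to 1 when a library was left out. Where it was 0, Cyfip2 itself was not called. Library weights turned Myo7a to -0.11 and the median of the Usher genes to -0.072. Quantile normalization turned Pcdh15 to 0.0053. With a library left out, log2 fold changes were -0.19 to 0.36 for Myo7a, -0.063 to 0.064 for Pcdh15, -0.0034 to 0.16 for Clrn1, -0.12 to -0.0034 for Cib2, and -0.077 to 0.072 for the median of the Usher genes. List medians then were -0.00080 to 0.051 for atypical Usher genes and 0.014 to 0.11 for myosin transport, whose median was 0.0062 with no minimum and with a minimum of 5 FPKM. The causes were not tested. The Cdh23 to Pcdh15 difference was 0.08 to 0.36 with a library left out and 0.45 with no pseudocount. The labels give the libraries numbers but state no pairing. Deviations of same-numbered libraries from their group means correlated at 0.0718, 0.00634 and 0.101, against -0.119 to 0.0363 for differently numbered ones. These values do not settle whether the numbers mark pairs. The replicate block changed no call of an Usher gene. Low levels limit Cdh23, Ush1g and Ush1c most.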
